A study of Drosophila melanogaster with 3 samples.

Results

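The regulators of the syncytial division cycle were followed in *Drosophila* embryos 30 min after laser wounding, as a set of 10 genes made up of 3 cyclins, their kinase and the genes that switch that kinase on and off. A probe was assigned to one of these genes where the array platform's annotation gave its symbol or a FlyBase synonym. Of the 10 genes, 5 had a probe of their own (*trbl*, *CycB3*, *twe*, *fzy* and *CycB*), with 7 probes in all, out of 8177 named genes tested. *grp* was named only together with *squ* on 1 shared probe. No probe was named for *stg*, *CycA*, *Cdk1* or *polo* in the annotation used here, so these 4 genes have no value.

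Embryos aged 0 to 1 h, which carried the fluorescent actin reporter sGMCA (a GFP-tagged actin-binding part of moesin driven by *spaghetti squash* sequences), were dechorionated by hand, put in halocarbon oil and either laser wounded or left unwounded. Each of the 3 two-colour arrays, from the independent experiments 3, 4 and 5, compared RNA of wounded embryos in Cy3 with RNA of unwounded embryos in Cy5. The dyes were not exchanged on any array, so a dye effect and an effect of wounding cannot be told apart. Values are log2 ratios, and positive values are read as higher in wounded embryos. This direction is likely but is not stated in the table. It rests on the genes named in the text of the study: all 12 tested of those given as raised were above 0 and all 13 of those given as lowered were below 0, which is no independent evidence. The means of the raised gene *nullo* and the lowered gene *dhd* on these arrays were 1.095 and -1.348. These are also the log2 changes after wounding that the study gives for them, with the same signs. With the opposite reading every sign below turns around. The ratios hold no transcript level, so neither the brightness of a spot nor the identity of the embryos as syncytial could be checked from them. RNA came from whole embryos, so more nuclei and more RNA per nucleus cannot be told apart.

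The early fly embryo divides its nuclei quickly and in near synchrony inside 1 shared cytoplasm, and it does so on RNA and protein laid down by the mother. Each mitosis is entered when Cdk1 bound to a mitotic cyclin is freed of inhibitory phosphate by a Cdc25 phosphatase, and is left when the anaphase-promoting complex marks the cyclins for destruction. The rapid cycles stop at the mid-blastula transition, when the embryo's own genes are switched on, Cdc25 protein is removed and checkpoint kinases lengthen interphase.

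None of the 5 measured genes passed the test for a change after wounding. *trbl* lay highest, at 1.43-fold, and *CycB3* followed at 1.17-fold, whereas *twe*, *fzy* and *CycB* were within a few percent of equal levels in wounded and unwounded embryos. A feature was called at a limma adjusted p under 0.05 with a change of at least 1.5-fold, which 237 of 10183 features met, or 2.33% (0.648% higher and 1.68% lower). Beside that share, a count of 0 of 5 is no result about these genes. At an unadjusted limma p under 0.05, 1 of the 5 passed, beside 25.0% of all features. The median log2 ratio was 0.05 over the 5 genes and 0.0014 over all features.

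**Figure D1:**
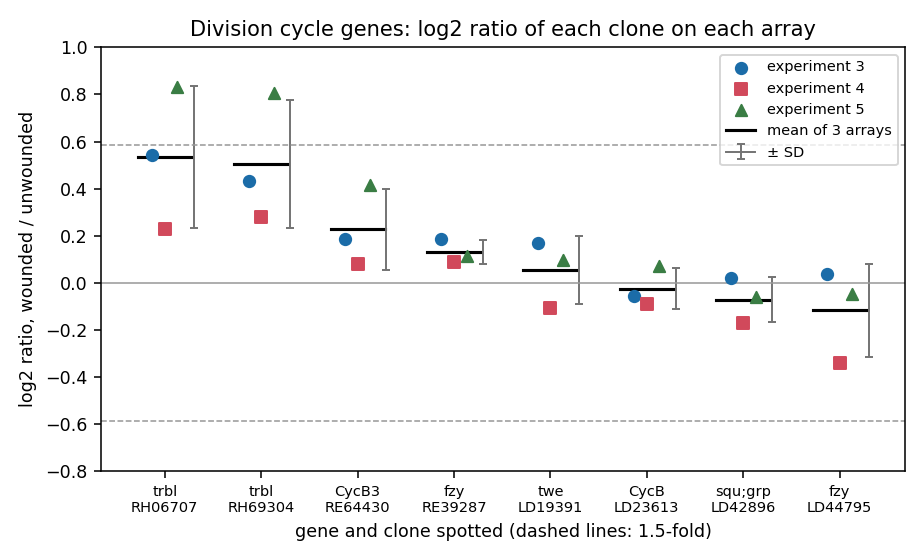
Log2 ratio of wounded over unwounded embryos for each spotted clone of the division cycle genes, with 1 point per array, the mean of 3 arrays as a black bar and the SD as a grey bar; dashed lines mark 1.5-fold. Both *trbl* clones lay above 0 on every array and had the highest means, at 0.54 and 0.51, and the lowest single point was that of the *fzy* clone LD44795 in experiment 4, at -0.34.

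*trbl* (CG5408) encodes Tribbles, a pseudokinase that promotes the destruction of the Cdc25 proteins String and Twine and so holds back mitosis. Its log2 ratio was 0.49, 0.25 and 0.82 in experiments 3, 4 and 5. All 3 arrays were thus above 0, with experiment 5 highest and experiment 4 lowest. The mean was 0.52 ± 0.28 (SD, n = 3), with a 95% interval from limma of 0.20 to 0.84, or 1.15-fold to 1.79-fold. The unadjusted p was 0.00876, but over all features the limma adjusted p was 0.0935, and the mean was below the 1.5-fold minimum of 0.58. Among all features, 224 had a higher mean, so that *trbl* stood above 97.8% of them.

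The 2 clones spotted for *trbl* gave nearly the same picture. Clone RH06707 had 0.54, 0.23 and 0.83 in experiments 3, 4 and 5, a mean of 0.54 ± 0.30. Clone RH69304 had 0.43, 0.28 and 0.81, a mean of 0.51 ± 0.27. The clones differed by at most 0.11 on any array, and by -0.03 ± 0.08 on average (RH69304 minus RH06707), which is less than the spread between arrays. Tested as separate probes, they had limma adjusted p-values of 0.105 and 0.102. The spread of *trbl* was therefore shared by both clones and was the largest among the 5 genes, beside a median SD of 0.13 over all features.

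*twe* (CG4965) encodes Twine, the Cdc25 phosphatase known for its role in female meiosis and for its maternal supply to the early embryo. Its single clone had 0.17 in experiment 3, -0.11 in experiment 4 and 0.10 in experiment 5. The arrays lay on both sides of 0, and the mean of 0.05 ± 0.14 did not pass (limma, adjusted p = 0.703). The 95% interval of -0.16 to 0.26 leaves room for a change of up to 1.20-fold upward. The other Cdc25 gene, *stg* (String), whose transcription in the embryo times the mitoses after the syncytial cycles, is one of the genes with no named probe. The ratio of the 2 Cdc25 genes could thus not be set side by side, and neither could *trbl* and its target *stg*.

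The mitotic cyclins bind Cdk1 and differ in when they are destroyed, cyclin A first, then cyclin B and last cyclin B3. *CycB3* (CG5814) had 0.19, 0.08 and 0.42 in experiments 3, 4 and 5, above 0 on all 3 arrays. Its mean was 0.23 ± 0.17, with an interval of -0.0017 to 0.46 that just includes 0, and the limma adjusted p was 0.202 (unadjusted p = 0.0511). *CycB* (CG3510), whose maternal RNA is also gathered at the posterior pole, had -0.06, -0.09 and 0.07. Its mean was -0.02 ± 0.09, the smallest SD of the 5 genes, with an interval of -0.20 to 0.15 and an adjusted p of 0.845 (limma). On each array *CycB3* was above *CycB*, by 0.24, 0.17 and 0.34.

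*fzy* (CG4274) encodes Fizzy, the fly Cdc20, which directs the anaphase-promoting complex to its mitotic substrates. Averaged over its 2 clones it had 0.11, -0.13 and 0.03, a mean of 0.0061 ± 0.12 (limma, adjusted p = 0.968). The clones did not give the same value. Clone RE39287 was above 0 on all arrays, at 0.19, 0.09 and 0.11, with a mean of 0.13 ± 0.05. Clone LD44795 had 0.04, -0.34 and -0.05, with a mean of -0.12 ± 0.20. The gap between the clones was 0.15, 0.43 and 0.16 in experiments 3, 4 and 5, widest in experiment 4. Neither clone passed on its own (limma, adjusted p = 0.283 and 0.477), so the near-zero mean of *fzy* is an average of clones on opposite sides of 0. *fzy* and *twe* lie on the same chromosome arm with 13 protein-coding genes between them.

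*grp* (CG17161) encodes Grapes, the fly Chk1 kinase, which lengthens the last syncytial interphases, and *squ* is a germ-line gene whose locus overlaps that of *grp* in the gene table. The clone that the platform names for both, LD42896, had 0.02, -0.17 and -0.06, a mean of -0.07 ± 0.10. This value cannot be given to either gene. *polo*, the Polo kinase of centrosomes and spindles, *Cdk1* itself and *CycA* have no value for the reason given above.

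**Figure D2:**
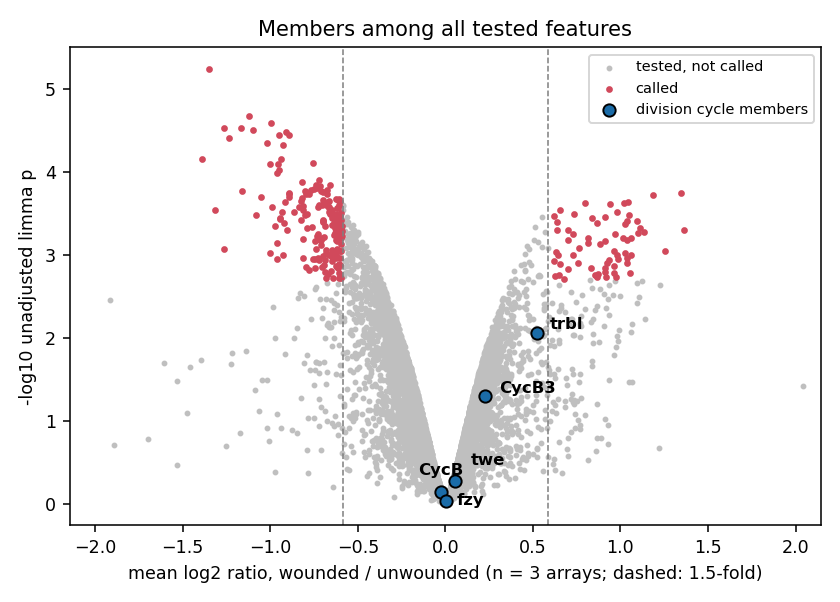
Mean log2 ratio (n = 3 arrays) against the -log10 of the unadjusted limma p for 10183 features, with called features in red and the 5 division cycle genes in blue. *trbl* lies near the right 1.5-fold line but below the called features, and *twe*, *fzy* and *CycB* lie at the base of the plot.

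The 95% interval of the mean lay inside 1.5-fold in both directions for *CycB3*, *twe*, *fzy* and *CycB*, and not for *trbl*. The share of all features with such an interval was not counted, so this is no result about these genes. For *fzy* the interval is that of the average of its 2 clones, which differed by 0.43 in experiment 4. These intervals are not adjusted for the number of features and cover the spread between arrays but not an effect of the dyes. The same sign on all 3 arrays was found for 2 of the 5 genes, *trbl* and *CycB3*, beside 50.3% of all features. All 5 genes had their lowest value in experiment 4, as did 46.3% of all features. The highest value was in experiment 5 for *trbl*, *CycB3* and *CycB*, and in experiment 3 for *twe* and *fzy*.

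The genes were also compared with each other, as the difference of their log2 ratios on the same array. *trbl* exceeded each of the other 4 genes on every array, by 0.17 or more. Its mean excess was smallest over *CycB3*, at 0.29 ± 0.11, and largest over *CycB*, at 0.55 ± 0.20. Of the 10 pairs compared, 8 had a difference of 1 sign on all 3 arrays. The 10 pairs reuse the same 5 genes and are not independent. No such count was made for pairs of other features, so the 8 are no result about these genes. An exact sign-flip permutation test over 3 arrays, two-sided, cannot give a p below 0.25, and adjusted over the 10 pairs the smallest value was 0.312. This test therefore cannot reach the usual threshold for any pair with 3 arrays. In the order *trbl*, *CycB3*, *twe*, *fzy*, *CycB*, *twe* was above *fzy* by 0.06, 0.02 and 0.07 in experiments 3, 4 and 5, a mean difference of 0.05 ± 0.03. *CycB* differed from *twe* by 0.08 ± 0.13 and from *fzy* by 0.03 ± 0.12 (*twe* or *fzy* minus *CycB*), with both signs among the arrays and a mean smaller than the SD of the difference.

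Further genes of the division cycle, and other cyclins, Cdks and phosphatase subunits whatever their role, were taken from 7 lists with 82 genes. In these lists 62 genes were tested. Of these 62, 0 were called higher, 1 was called lower and 61 did not pass, so that 1.61% were called beside 2.33% of all features. At an adjusted p under 0.05 without a minimum fold, 4 passed, all of them lower (6.45%, beside 4.03% of all features in either direction and 3.16% lower). The lists' overall median was -0.04, and 26 of the 62 were below 0 on all 3 arrays (41.9%, beside 25.0% of all features). Another 17 of the 62 were above 0 on all 3 arrays. Of all features, 50.3% had the same sign on all 3 arrays, in either direction. No gene of these lists had a higher mean than *trbl*.

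The called gene was *nod*, in the list of 12 mitotic kinases and spindle checkpoint genes, and it encodes a kinesin-like protein that holds chromosomes on the spindle of the oocyte. Its log2 ratio was -0.57, -0.73 and -0.54, low on every array. The mean of -0.62 ± 0.10, or 1.53-fold lower, passed with a limma adjusted p of 0.0365. Like every other call made here, it was lost when any 1 array was left out or when the arrays were scaled to an equal spread. The median of that list was 0.07, and the other 11 genes did not pass. Among them was *mtrm*, named here after its values were seen because its product, Matrimony, binds and inhibits Polo in the oocyte. It had -0.38, -0.39 and -0.76, a mean of -0.51 ± 0.22 (limma, adjusted p = 0.0703).

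Of 14 tested genes for other cyclins, Cdks, Cks proteins and the cyclin H partner Mat1, none was called in limma, and their median was -0.03. At an unadjusted limma p under 0.05 there were 7 of the 14, 5 lower and 2 higher, beside 25.0% of all features. *CycJ*, a cyclin of the female germ line and the early embryo, had -0.49, -0.61 and -0.60. Its mean of -0.57 ± 0.07 reached an adjusted p of 0.0365 (limma) but stayed just short of 1.5-fold. *Cks30A*, a small Cdk-binding protein needed in female meiosis and in the syncytial cycles, had -0.25, -0.59 and -0.54, a mean of -0.46 ± 0.18 (adjusted p = 0.0701 in limma). Both were among 6 of the 14 genes that were below 0 on all arrays, beside 25.0% of all features, and 4 of the 14 were above 0 on all arrays. Either sign on all arrays was found for 50.3% of all features.

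The list for the anaphase-promoting complex, separase and mitotic exit had a median of -0.10 over 17 genes, and none was called. *endos*, which encodes the inhibitor of PP2A that Greatwall kinase activates, had -0.40, -0.52 and -0.58, a mean of -0.50 ± 0.10 (limma, adjusted p = 0.0403). The subunit gene *APC7* had -0.38, -0.41 and -0.52, a mean of -0.44 ± 0.07 (limma, adjusted p = 0.0435). Both passed on the adjusted p and not on the minimum fold.

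*gnu* and *png*, which encode subunits of the kinase complex that releases maternal cyclin B RNA for translation at egg activation, were the 2 tested genes of their list. *gnu* had -0.32, -0.25 and -0.51, a mean of -0.36 ± 0.13 (limma, adjusted p = 0.0802). *png* had -0.40, -0.47 and 0.0011, a mean of -0.29 ± 0.25 (adjusted p = 0.204 in limma). *png* was thus low in experiments 3 and 4 and near 0 in experiment 5. *rux*, the 1 tested gene of the 5 Cdk inhibitors and inhibitory kinases, encodes an inhibitor of Cdk1 bound to cyclin A. It had -0.17, -0.41 and -0.40, a mean of -0.32 ± 0.14 (limma, adjusted p = 0.0978).

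The DNA damage and replication checkpoint list had a median of -0.09 over 10 genes and no call. Its smallest p-values were those of *nbs*, which acts in the repair of double-strand breaks, at -0.33 ± 0.04 (limma, adjusted p = 0.0646), and *mus101*, the fly TopBP1, at -0.23 ± 0.05 (adjusted p = 0.122). The PP1, PP2A and PP4 phosphatase list had a median of 0.12 over 6 genes and no call. Of these 6, 5 were above 0 on all arrays and 1 was below 0 on all. Beside this, 50.3% of all features had the same sign on all arrays, and 25.0% were below 0 on all. The smallest p-values of the phosphatase list were those of the catalytic subunit genes *Pp4-19C*, at 0.18 ± 0.03, and *Pp1-13C*, at 0.17 ± 0.05 (limma, adjusted p = 0.164 and 0.183).

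**Figure D3:**
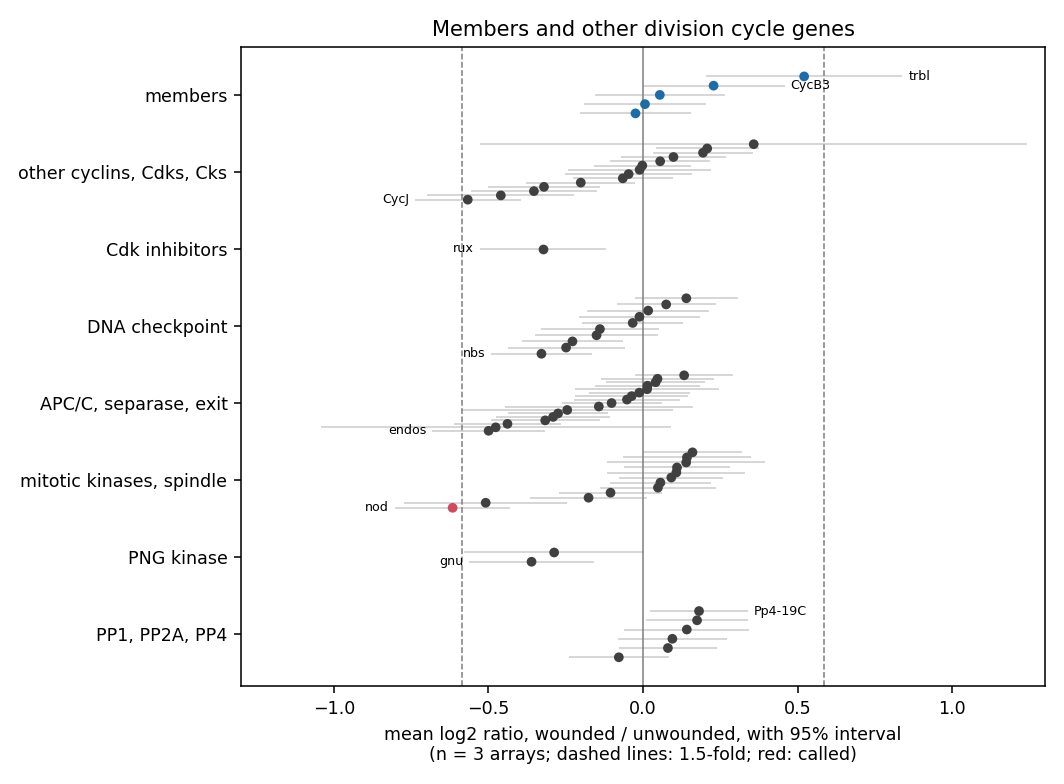
Mean log2 ratio (point) and 95% limma interval (line) of the 5 division cycle genes in blue and of 62 further genes in 7 lists, n = 3 arrays; red marks the gene called lower and dashed lines mark 1.5-fold. *trbl* has the highest mean in the plot and *nod* the lowest.

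Some markers of embryonic stage moved on the same arrays. The marker lists were chosen with earlier results of these data known. The study itself lists *nullo* and *dpn* as raised and *dhd* and *exu* as lowered after wounding. The shares of markers called are therefore no independent evidence about stage. Of 18 tested early zygotic genes, which the embryo transcribes before and during cellularization, 12 were called higher, beside 0.648% of all features. The means in this list ranged from -0.12 for *gt* to 1.10 for *dpn*. The medians of the 18 genes in experiments 3, 4 and 5 were 1.06, 0.60 and 1.01. Like *trbl*, the list was thus lowest in experiment 4, but it stood highest in experiment 3 and *trbl* in experiment 5. On each array *trbl* was below the median of these markers. Of 20 maternal RNAs, 3 were called lower, beside 1.68% of all features, with medians of -0.15, -0.14 and -0.09. Among these 20, 8 were below 0 on all arrays, beside 25.0% of all features, and 1 was above 0 on all arrays. Either sign on all arrays was found for 50.3% of all features. Among 20 markers of later embryonic tissues and 3 yolk genes 0 were called in limma, beside 2.33% of all features, with medians of 0.02 and -0.15. At an unadjusted p under 0.05 there were 4 and 0 of them, beside 25.0% of all features. The part of embryonic stage in the values of *trbl* and of the maternal division cycle genes was not tested.

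**Figure D4:**
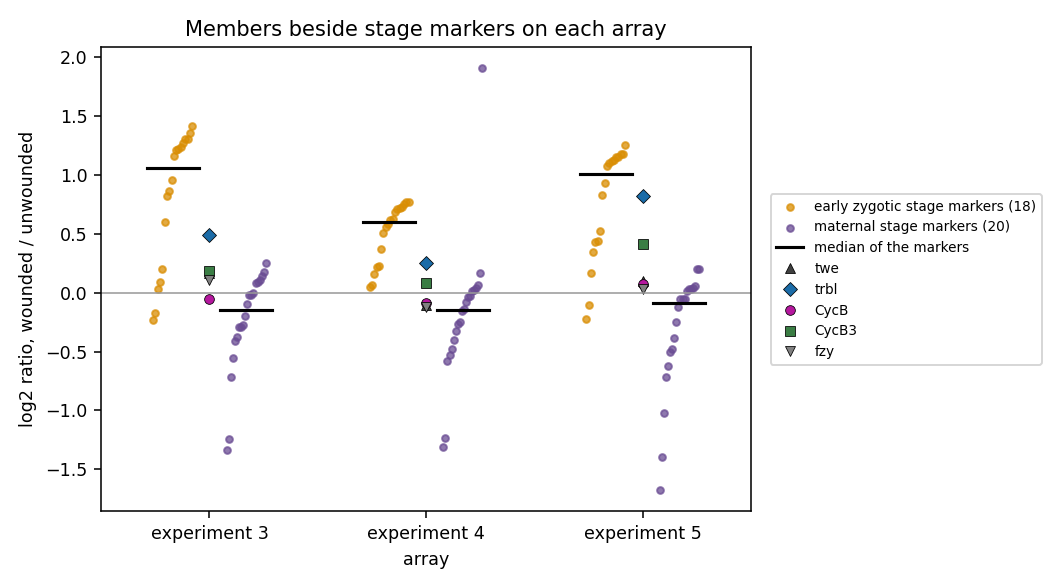
Log2 ratio on each array of 18 early zygotic and 20 maternal stage markers (small points, with their medians as bars) and of the 5 division cycle genes. *trbl* lies between the medians of both marker lists on each array, and *twe*, *fzy* and *CycB* lie near 0.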

How the data were processed

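Per the study's methods, the authors scanned the spotted cDNA arrays, dropped dim and flagged spots, took log2 ratios and loess normalized each array in limma. The deposited table holds these log2 ratios, 1 per probe and array, for 12144 probes. Loess sets most ratios near 0, so a shift shared by most transcripts cannot be seen. No intensities were used, so depth is unknown, and precision is limited by there being 3 arrays. Here 3 arrays were analysed, and the methods mention a further replicate, which was not analysed here.

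Probes were named from the platform annotation and updated through gene identifiers to the RefSeq Release 6 gene table. Of the probes, 9917 had 1 symbol, 625 several and 1442 none, and 160 control spots were left out. Probes of 1 gene with values on all 3 arrays were averaged, which gave 10183 features. An intercept-only limma model (version 3.58.1, R 4.3.3) with moderated variances was fitted to all features, two-sided, with Benjamini-Hochberg adjustment. The model was also run on simulated data with independent normal errors, which hold no dye effect and no effect shared across an array. The alternatives were other scaling, centring, probe averaging, missing-value rules, array weights, thresholds and sign, and leaving out each array. The rule for named genes took all division cycle genes with a probe and, from each further list, the called genes (at most 4), or else the 2 with the smallest p. The members and lists were chosen with earlier results of these data known.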

Additional observations from a re-analysis of the deposited data

How the results depend on the processing

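No alternative called any of the 5 division cycle genes. *trbl* had a mean of 0.37 to 0.65 when 1 array was left out (limma, adjusted p = 0.0929 to 0.294) and *CycB3* one of 0.13 to 0.30. The smallest limma adjusted p of *trbl* was 0.0702, with array weights. At an adjusted p under 0.10 *trbl* missed only the minimum fold, and no alternative relaxed both thresholds. Means near 0 changed sign. When 1 array was left out, *twe* ranged from -0.0043 (without experiment 3) to 0.13, *CycB* from -0.0737 to 0.0078 (without experiment 4) and *fzy* from -0.0462 to 0.0719, below 0 without experiment 3 and, at -0.0073, without experiment 5. *fzy* was also at -0.00082 once arrays were scaled to an equal spread, and at -0.12 for clone LD44795. Read with the opposite sign, the means were -0.52 for *trbl*, -0.23 for *CycB3*, -0.0540 for *twe*, -0.0061 for *fzy* and 0.0246 for *CycB*, and 171 features were higher and 66 lower.

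Scaling the arrays to an equal spread, or testing against a 1.5-fold change, left 0 features higher, 0 lower and 0 genes of the further lists called in limma, beside 2546 and 118 features at unadjusted p-values under 0.05. Leaving out experiment 3, 4 or 5 gave 0 for each count too, beside 1473, 2446 and 1675 such features, so the call of *nod* rests on all 3 arrays. Fewer arrays give fewer degrees of freedom, and for the scaling the cause was not tested. With no minimum fold, 322 features were lower and 4 genes of the further lists passed. At an adjusted p under 0.10, 115 features were higher. Each array sets wounded against unwounded embryos, so the test of the mean ratio against 0 already uses this pairing. With 1 group, no further pairing was possible.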

Other observations

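The kinase that activates Cdk1 by phosphorylating its activation loop is made of Cdk7, cyclin H and Mat1. The values that follow were chosen after they were seen, and none was called. *Mat1* had -0.22, -0.35 and -0.39 in experiments 3, 4 and 5, a mean of -0.32 ± 0.09 (limma, adjusted p = 0.0818). *CycH* had -0.11, -0.23 and -0.26, a mean of -0.20 ± 0.08 (limma, adjusted p = 0.163). Both subunits were below 0 on all arrays and lowest in experiment 5, and *Cdk7* had no named probe. *Cdk2*, the partner of cyclin E, had -0.35 ± 0.14 (limma, adjusted p = 0.0853), whereas *CycE* had -0.05 ± 0.14 (adjusted p = 0.738).

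*cort*, a relative of *fzy* that serves the anaphase-promoting complex in female meiosis, had -0.31, -0.23 and -0.29, a mean of -0.27 ± 0.04 (limma, adjusted p = 0.0878). *fzr*, the relative that acts when cells leave the cycle, had -0.10 ± 0.04 (limma, adjusted p = 0.361). *cort* was below both *fzy* clones in experiments 3 and 5 and between them in experiment 4. *lok*, the fly Chk2 kinase, had -0.17, -0.21 and -0.37, a mean of -0.25 ± 0.11 (limma, adjusted p = 0.132). *Cks85A* had -0.16 in experiments 3 and 4 and 1.39 in experiment 5, so that its mean of 0.36 ± 0.90 rests on 1 array.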
